A study of Mus musculus with 18 samples.

Results

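Oxidative phosphorylation (OXPHOS) genes were followed by complex across 6 groups of mouse bone marrow-derived macrophages (BMDMs). The genes were those with a symbol that starts with Nduf, Uqcr, Atp5 or Cox4 to Cox8, with the complex II genes Sdha, Sdhb, Sdhc and Sdhd and the cytochrome c gene Cycs, and with a mean of at least 10 read pairs over the 18 libraries. The symbol Ndufab1-ps was dropped as a pseudogene, which left 98 matching symbols. Of these, 8 lay under the limit, and 90 OXPHOS genes remained of the 22852 symbols counted. They were 47 genes of complex I (39 subunits and 8 assembly factors), 4 of complex II, 8 of complex III, 13 of complex IV, 17 of ATP synthase and Cycs. Ndufa4, named for complex I, was placed in complex IV. All 90 passed the expression filter of the tests. Nearest to the limit from above were Ndufb4b, with a mean of 24.2 read pairs, and Ndufb4c, with 29.6. Both count among the 39 subunits by their symbols. In the GENCODE annotation Ndufb4b is a long non-coding RNA and Ndufb4c a transcribed processed pseudogene, with 99.1% and 100.0% identity to Ndufb4. Below the limit lay Cox6a2 with 5.06, Cox6b2 with 4.39, Ndufs6b with 3.0 and Cox4i2 with 2.72, whereas Cox7b2, Cox8b, Cox8c and Ndufa4l2 had 0 read pairs in every library.

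The cells were grown from bone marrow of female C57BL/6 mice in medium conditioned by L929 cells, and each group had 3 biological replicates. LPS-primed cells received the vehicle and then LPS of Salmonella at 100 ng/ml for 24 h. LPS-tolerant cells were primed in the same way and then received fresh medium with LPS at 10 ng/ml for 3 h. Carboplatin, a platinum drug that crosslinks DNA, was given at 25 µM before priming in a further group of primed cells and a further group of tolerant cells. LPS-stimulated cells received only the later dose of 10 ng/ml, without priming, and unstimulated cells received no LPS. The later dose lasts 3 h in the treatment scheme, but the label of the stimulated cells gives only its dose. By this scheme, primed and stimulated cells differed in both dose and time, which cannot be told apart. Tolerant and primed cells differed in the later dose, the change of medium and the added 3 h, which cannot be told apart either. The effect of carboplatin was measured only in LPS-treated cells.

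In oxidative phosphorylation, complex I takes electrons from NADH and complex II takes them from succinate. Ubiquinone, complex III, cytochrome c and complex IV pass the electrons to oxygen, and ATP synthase uses the proton gradient that complexes I, III and IV build up. A small part of the subunits is encoded by mitochondrial DNA (mtDNA) and the rest by nuclear genes, and LPS-activated macrophages are known to shift from respiration towards glycolysis while succinate and itaconate accumulate.

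Nuclear OXPHOS genes are known targets of the transcription factor NRF1, so the promoters (250 bases before to 50 bases after the start site, from RefSeq, build GRCm38.p6) were searched on both strands for its core letters GCGCATGC. A promoter was found for 76 of the 90 genes, and 13 of these (17.1%) held the letters, against 6.3% of tested genes and 2.71% of all 32851 promoters. The letters CCGGAAG of ETS factors such as GABP stood in 25.0% of the OXPHOS promoters (21.5% of tested genes), AAGATGGC of YY1 in 14.5% (5.7%) and GGGCGG of Sp1 in 44.7% (68.8%). The promoters of Cycs, Ndufaf4 and Sdhb are shown because these genes held the NRF1 letters and moved in different directions with LPS. They lie at chr6:50566520-50566819 (minus strand), chr4:24897833-24898132 (plus strand) and chr4:140961021-140961320 (plus strand), and capitals mark the NRF1 letters on either strand.
Cycs: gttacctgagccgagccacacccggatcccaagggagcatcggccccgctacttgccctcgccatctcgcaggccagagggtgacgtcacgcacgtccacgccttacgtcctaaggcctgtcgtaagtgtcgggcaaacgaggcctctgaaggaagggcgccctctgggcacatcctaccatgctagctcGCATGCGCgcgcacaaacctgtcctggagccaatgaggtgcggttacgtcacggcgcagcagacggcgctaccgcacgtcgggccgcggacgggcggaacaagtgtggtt
Ndufaf4: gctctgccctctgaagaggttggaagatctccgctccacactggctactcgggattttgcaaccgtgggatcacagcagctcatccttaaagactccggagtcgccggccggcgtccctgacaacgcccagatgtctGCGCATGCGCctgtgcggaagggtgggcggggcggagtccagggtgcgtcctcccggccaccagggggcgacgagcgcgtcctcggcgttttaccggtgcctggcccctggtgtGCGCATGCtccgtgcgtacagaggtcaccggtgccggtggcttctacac
Sdhb: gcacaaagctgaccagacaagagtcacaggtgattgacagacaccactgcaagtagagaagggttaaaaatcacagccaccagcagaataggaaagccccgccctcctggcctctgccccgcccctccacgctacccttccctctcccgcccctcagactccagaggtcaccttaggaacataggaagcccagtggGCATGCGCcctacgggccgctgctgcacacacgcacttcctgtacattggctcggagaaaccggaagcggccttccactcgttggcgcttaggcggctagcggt
The letters began 60 bases before the start site of Cycs and 54 bases before that of Sdhb. Ndufaf4 held 3 runs, of which a pair overlapped, and the farthest began 113 bases before the start site. Among the 13 genes with the letters, 1 rose and 1 fell in primed cells (12.1% and 13.1% of all tested genes) and 2 rose and 1 fell in stimulated cells (24.3% and 26.9%). In tolerant cells 1 was higher and 0 lower than in stimulated cells (16.2% and 18.3%) and 1 was higher than in primed cells (3.60%). With the replicate number as a block, Atp5g2, Ndufa6 and Ndufa8 also fell in stimulated cells, and against these Ndufa6 and Ndufa8 were higher and Ndufaf4 lower in tolerant cells. A match of letters is a description of the window and not a binding site.

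Each library held 6869667 to 14708099 read pairs on genes (median 8986463), and 41.52% to 46.89% of read pairs lay on no single gene. The 8 macrophage markers were detected and summed to 15261 to 32725 CPM (counts relative to the TMM-scaled library size), from 16061 to 18114 in unstimulated, 15261 to 19205 in stimulated and 29445 to 29792 in primed cells. The 6 neutrophil markers summed to 0.879 to 57.8 CPM, with Ly6g and Mpo at 0 in every library, and this sum was 0.879 to 1.59 in unstimulated and 8.81 to 46.7 in primed cells, and its part in the results was not tested. The markers of B cells, T cells, dendritic cells, fibroblasts, erythroid cells and muscle summed to at most 1.86, 0.435, 1.27, 8.07, 0.742 and 1.06 CPM. The libraries of replicate 1 stood apart: the summed CPM of the 90 genes was highest in replicate 1 in 6 of 6 groups, 33 of the genes were highest in replicate 1 in every group, and the sum of the 13 mtDNA-encoded subunits was lowest in replicate 1 in 6 of 6 groups. The part of replicate 1 in the results was not tested beyond the fits with the replicate number as a block and those without each library.

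The 90 OXPHOS genes took up 0.854% ± 0.059 (SD, n = 3) of the read pairs on genes in unstimulated cells, 0.834% ± 0.047 in LPS-primed, 0.802% ± 0.030 in LPS-tolerant and 0.727% ± 0.10 in LPS-stimulated cells. After TMM scaling the order was another one, with unstimulated cells lowest, so the place of unstimulated cells among the groups rested on the scaling. On the TMM scale, the genes together summed to 7271 ± 607 CPM (SD, n = 3) in unstimulated cells, 8369 ± 577 in LPS-primed, 8634 ± 591 in LPS-tolerant and 7805 ± 972 in LPS-stimulated cells. Complex I was at 2072 ± 172 CPM in unstimulated, 2327 ± 218 in primed, 2353 ± 215 in tolerant and 2016 ± 327 in stimulated cells. ATP synthase stood at 2600 ± 264, 3152 ± 187, 3262 ± 171 and 3022 ± 317 CPM in the same order. The ATP synthase sum of every LPS-treated library except stimulated replicate 2 was above that of all 3 unstimulated libraries. Complex II was lowest in stimulated cells, at 380 ± 45.0 CPM against 452 ± 27.6 in unstimulated cells, and all 3 stimulated libraries lay below the lowest unstimulated library, replicate 1 only just. The mtDNA-encoded subunits summed to 30342 ± 6015 CPM in unstimulated and 34614 ± 4425 in tolerant cells. Each tolerant library lay above the unstimulated library of the same number, by 5757, 5441 and 1618 CPM, although the groups overlapped. These sums carry no test, and in RNA from whole cultures fewer cells of a type and less RNA per cell cannot be told apart.

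**Figure D1:**
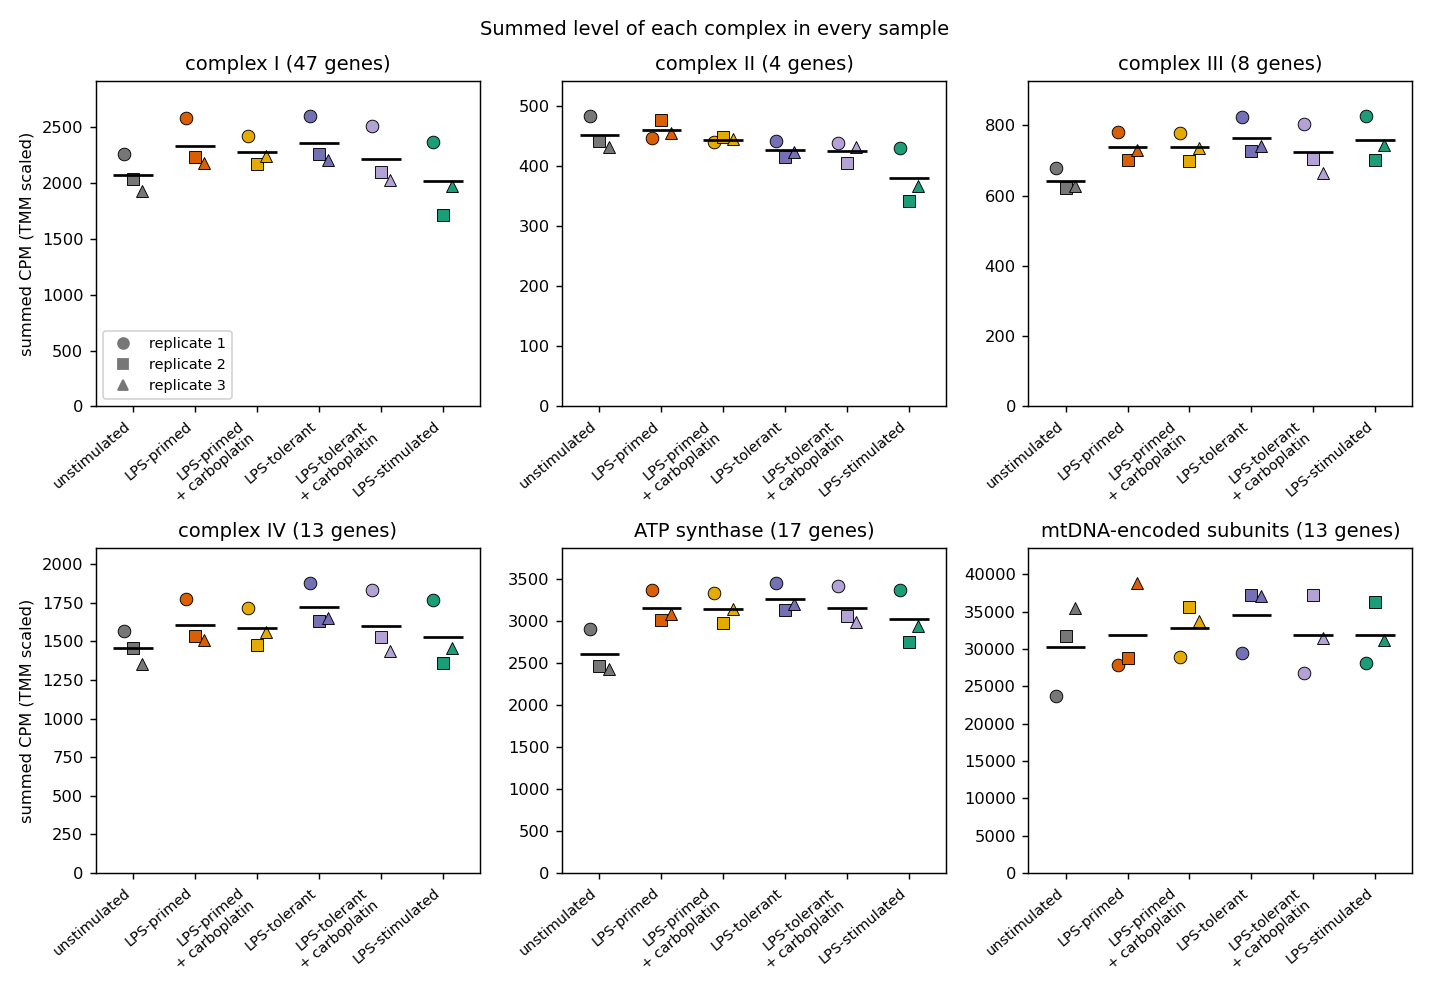
Summed level of each complex in every sample. The y axes start at 0 and give the summed CPM after TMM scaling, the x axes the 6 groups, marker shapes the replicates and horizontal bars the means; replicate 1 has the highest sum of complexes I, III and IV and of ATP synthase in every group and the lowest of the mtDNA-encoded subunits, and complex II has its lowest mean in LPS-stimulated cells.

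Per kilobase of transcript, the highest mean levels over the 18 libraries were 461 ± 38.8 CPM per kb for Cox4i1 (SD over libraries), 382 for Atp5b, 323 for Cox6b1 and 313 for Cox6c, and the lowest were 3.10 for Ndufaf6 and Ndufaf5 and 3.33 for Ndufaf1, all 3 of them assembly factors. For each gene, the ratio of its highest to its lowest group mean gave the range across groups. The median range was 1.35-fold over the 90 genes and 2.10-fold over 11165 tested genes with counts in every group. The tested genes were not matched to the 90 for expression level, and the part of expression level in the range was not tested. The range was under 1.5-fold in 65 of the 90 genes, against 21.2% of tested genes. It was over 2-fold in 6 genes, against 53.5% of tested genes: Ndufb1 (3.08), Ndufaf4 (3.02), Cycs (2.33), Ndufv3 (2.33), Ndufaf7 (2.22) and Atp5md (2.01). Cox6a1, a small structural subunit of complex IV, had the narrowest range (1.10).

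After priming with LPS for 24 h, the OXPHOS genes that passed the test differed by less than 2-fold, and the share that rose was near that of all genes. Compared to unstimulated cells, 11 genes rose and 1 fell in LPS-primed cells (edgeR quasi-likelihood test, Benjamini-Hochberg adjusted p under 0.05), that is 12.2% and 1.1% of the 90 genes, whereas 12.1% of all 11305 tested genes rose and 13.1% fell. The genes that rose were Ndufab1, Ndufb1, Ndufc1, Ndufc2 and Ndufv3 of complex I, Cox5a and Cox7b of complex IV, Atp5b, Atp5md and Atp5g3 of ATP synthase, and Cycs. Without the block described next, nothing was called in complexes II and III. The median log2 fold change was 0.19 over the 90 genes and -0.02 over all tested genes, with 0.18 in complex I, 0.04 in complex II, 0.17 in complex III, 0.13 in complex IV and 0.27 in ATP synthase. On the TMM scale, 56 of the 90 genes were higher and 9 lower in all 3 pairs of the same replicate number (62.2% and 10.0%, against 31.6% and 34.8% of tested genes). With the replicate number as a block, 24 of the genes rose and 3 fell (18.9% and 19.8% of tested genes). The block added Ndufaf3, Ndufb6, Ndufs4 and Ndufs5 of complex I, Sdhd, the complex III subunit Uqcrq (0.66), Cox6b1, Cox7a2, Cox8a, Atp5d, Atp5g1, Atp5j and Atp5o to the genes that rose, and Ndufa4 and Ndufs8 (-0.61), an iron-sulfur subunit of complex I, to those that fell. With library size alone as the scaling, which moved the median of all genes to -0.26, the median of the 90 genes was -0.05 and 4 rose and 6 fell. The single lower call, Atp5g2, was lost when any of the 6 libraries compared was left out.

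Cox5a, a subunit of complex IV, had the smallest adjusted p. Its normalized counts (counts scaled to a common library size) were 639, 561 and 578 in unstimulated and 981, 956 and 973 in LPS-primed replicates 1, 2 and 3. All 3 primed libraries lay above all 3 unstimulated libraries, with a log2 fold change of 0.71 ± 0.15 (SE, adjusted p = 0.00215). Cox5a also shares 269 exonic bases with the antisense gene Gm26631, and the strand option of the counting was not given in the sources used here. Cycs, the carrier between complexes III and IV, was at 612, 339 and 335 in unstimulated and 846, 705 and 821 in primed cells. Unstimulated replicate 1 was the highest of its group but still below every primed library (log2 fold change 0.88 ± 0.20, adjusted p = 0.00279). Cycs has 5 near-identical copies in the genome, of which Gm10053 matches it at 99.9% over 946 aligned bases. The exons of Cycs hold 3164 bases, and reads from the matching parts may be split among the copies or left out. Atp5g3, one of the genes for the c subunit of the ATP synthase rotor, was at 1655, 1342 and 1280 in unstimulated and 2041, 1873 and 2016 in primed cells. These ranges did not overlap either (log2 fold change 0.47 ± 0.12, adjusted p = 0.00665). Atp5g3 shares 222 exonic bases with the antisense gene Gm74582.

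The other genes that rose belonged to complex I, complex IV and ATP synthase. Ndufv3, an accessory subunit of the NADH-binding module, was at 894, 772 and 567 in unstimulated and 1465, 1221 and 1125 in LPS-primed cells. The groups did not overlap, and replicate 1 was highest in both (log2 fold change 0.77 ± 0.20, adjusted p = 0.00724). Atp5b, the catalytic beta subunit, was at 5788, 4598 and 4388 in unstimulated and 7144, 6716 and 6877 in primed cells, again without overlap (0.49 ± 0.13, adjusted p = 0.0117). Atp5md, a small subunit of the membrane part, was at 423, 390.1 and 438 in unstimulated and 780.0, 606 and 636 in primed cells (0.69 ± 0.18, adjusted p = 0.00783). Among the remaining genes that rose, Ndufc1 changed by 0.72, Cox7b by 0.61, Ndufb1 by 0.60, Ndufc2 by 0.44 and Ndufab1, the acyl carrier protein, by 0.42 on the log2 scale. The call of Ndufb1 was lost without LPS-primed replicate 3 (adjusted p = 0.0552), and that of Cox7b without unstimulated replicate 2 (0.0585) or LPS-primed replicate 1 (0.0576). The call of Ndufc2 was lost in 7 of 14 alternatives, among them those without any single one of the 6 libraries but unstimulated replicate 1 (0.0550 to 0.0951). That of Ndufab1 was lost in 8 of 14, among them those without any single one but LPS-primed replicate 2 (0.0575 to 0.152).

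**Figure D2:**
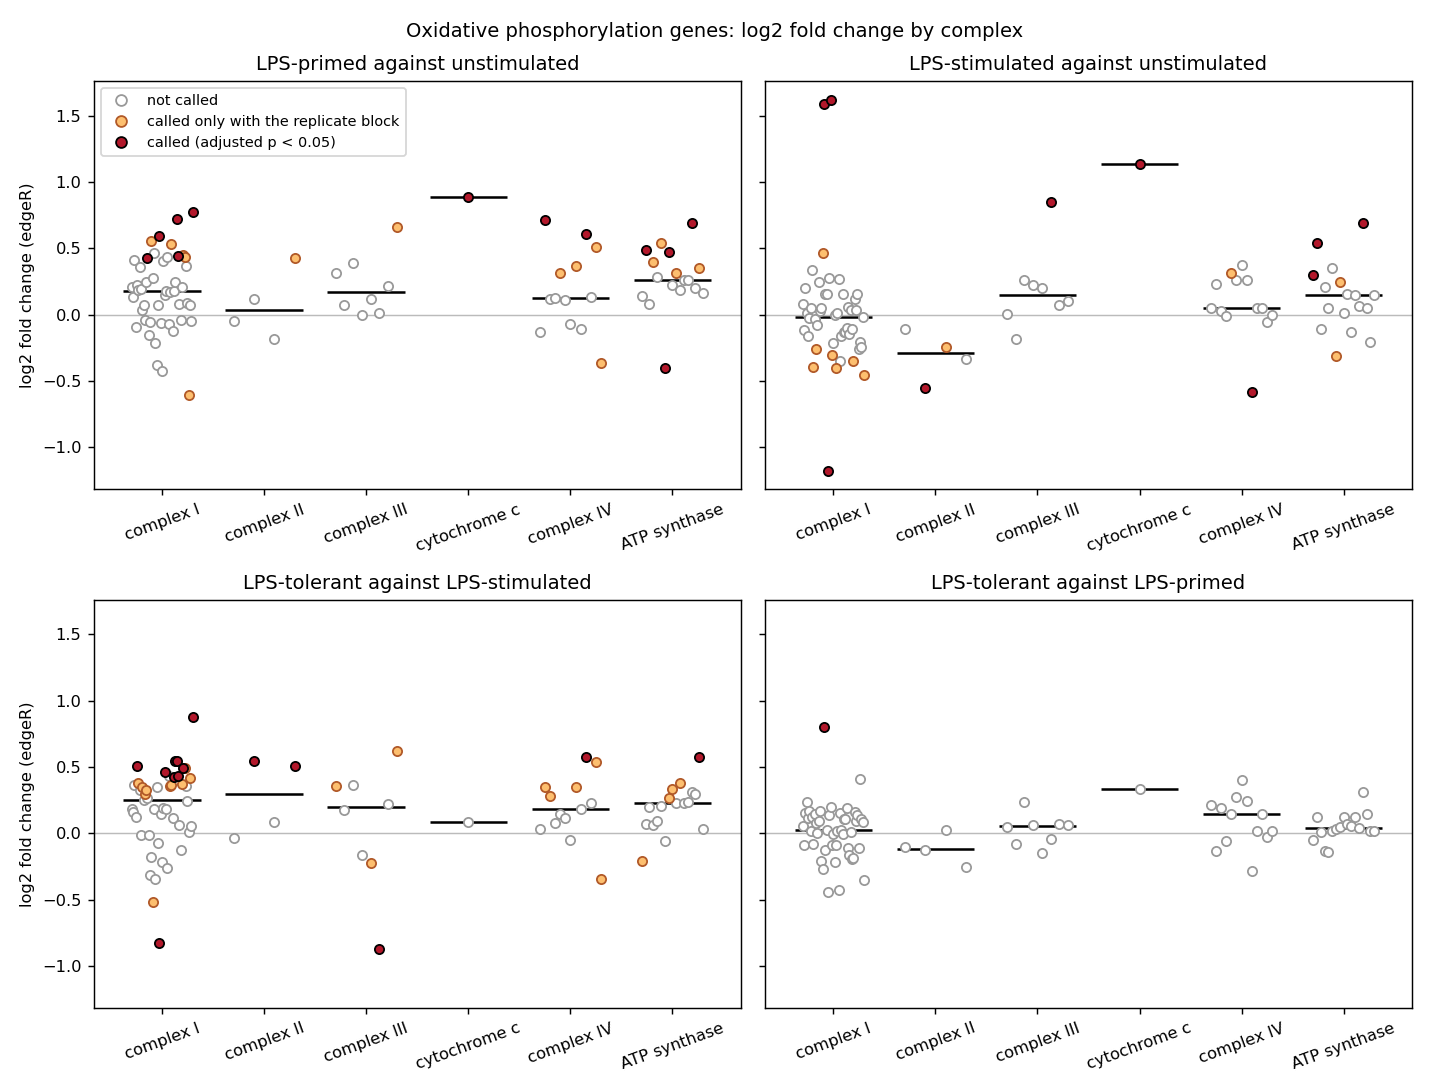
Log2 fold change of each OXPHOS gene, 1 panel per comparison. Points are genes, sorted on the x axis by complex, the y axis gives the log2 fold change, bars mark the median of each complex, and the fill tells genes called at an adjusted p under 0.05 from genes called only with the replicate block and genes not called; most points lie within 1 log2 unit of 0, and Ndufb1 and Ndufaf4 stand highest in LPS-stimulated cells at 1.62 and 1.59.

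On the TMM scale and without the block, few OXPHOS genes were called after the single low dose, and these went in both directions. In LPS-stimulated cells, 7 genes rose and 3 fell compared to unstimulated cells, that is 7.8% and 3.3% of the 90, whereas 24.3% of all tested genes rose and 26.9% fell. Ndufb1, Ndufaf4, Cycs, Uqcrfs1, Atp5b, Atp5md and Atp5a1 rose, and Ndufaf7, Cox7a2l and Sdhb fell. The median log2 fold change was 0.04 over the 90 genes and -0.09 over all tested genes, with -0.02 in complex I, 0.15 in complex III, 0.05 in complex IV and 0.15 in ATP synthase. In complex II it was -0.29 and 0 of 4 genes were above 0. With the replicate block, 10 genes rose and 11 fell (29.5% and 33.8% of tested genes). The block added Ndufaf3, Cox6b1 and Atp5g3 to the genes that rose, and Ndufa6, Ndufa8, Ndufb3, Ndufb10, Ndufs3, Ndufv3, Sdhc and Atp5g2 to those that fell, by -0.25 to -0.45 on the log2 scale. With library size alone, which moved the median of all genes to -0.43, 4 rose and 32 fell, and the sign of Atp5a1 turned to -0.03. Atp5g3 and Cox6b1 also turned sign, to -0.09 and -0.02. The number that fell was 8 without LPS-stimulated replicate 1 and 1 without LPS-stimulated replicate 2 or 3. This comparison and that of primed cells share the 3 unstimulated libraries, so their values are not independent.

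Ndufb1, an accessory subunit of the membrane arm of complex I, had the widest range of the 90 genes. Its normalized counts were 315, 291 and 306 in unstimulated and 923, 908 and 977 in LPS-stimulated cells. They were 443, 435 and 499.8 in LPS-primed, 451, 514 and 465 in LPS-primed + carboplatin, 520.4, 624 and 443 in LPS-tolerant and 511, 554 and 347 in LPS-tolerant + carboplatin cells. Every stimulated library lay above all 15 others, and every unstimulated library lay below them (stimulated against unstimulated, log2 fold change 1.62 ± 0.17, adjusted p = 6.22e-07). The gene lies at chr12:101934343-101943331 on the minus strand (GRCm39) and shares 475 exonic bases with Cpsf2, a gene of pre-mRNA 3' end processing, on the plus strand. Cpsf2 was at 679.6, 568 and 771 in unstimulated and 934, 1169 and 1184 in stimulated cells (0.70 ± 0.15, adjusted p = 0.00102), and its part in the Ndufb1 counts was not tested.

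Ndufaf4, an assembly factor of complex I, was at 63.1, 79.5 and 77.3 in unstimulated and 204, 243 and 216 in LPS-stimulated cells. It was at 99.5, 78.6 and 88.1 in LPS-primed and 146, 159.8 and 159 in LPS-tolerant cells. The tolerant libraries thus lay between the primed and the stimulated libraries, without overlap with either. Ndufaf4 rose in stimulated cells (log2 fold change 1.59 ± 0.23, adjusted p = 1.87e-05), and in primed cells its level overlapped that of unstimulated cells. Uqcrfs1, the Rieske iron-sulfur protein of complex III, was at 574, 554 and 598 in unstimulated and 994, 987 and 1124 in stimulated cells. All 15 libraries of the other groups lay between 510.0 and 678, below the lowest stimulated library. Its log2 fold change was 0.85 ± 0.13 in stimulated cells (adjusted p = 3.17e-05) and 0.01 in primed cells. Cycs was at 1018, 839 and 965 in stimulated cells, above all 3 unstimulated libraries (1.13 ± 0.20, adjusted p = 0.000142). Neither Ndufaf4 nor Uqcrfs1 has a near-identical copy or an exon shared with another gene in the annotation.

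**Figure D3:**
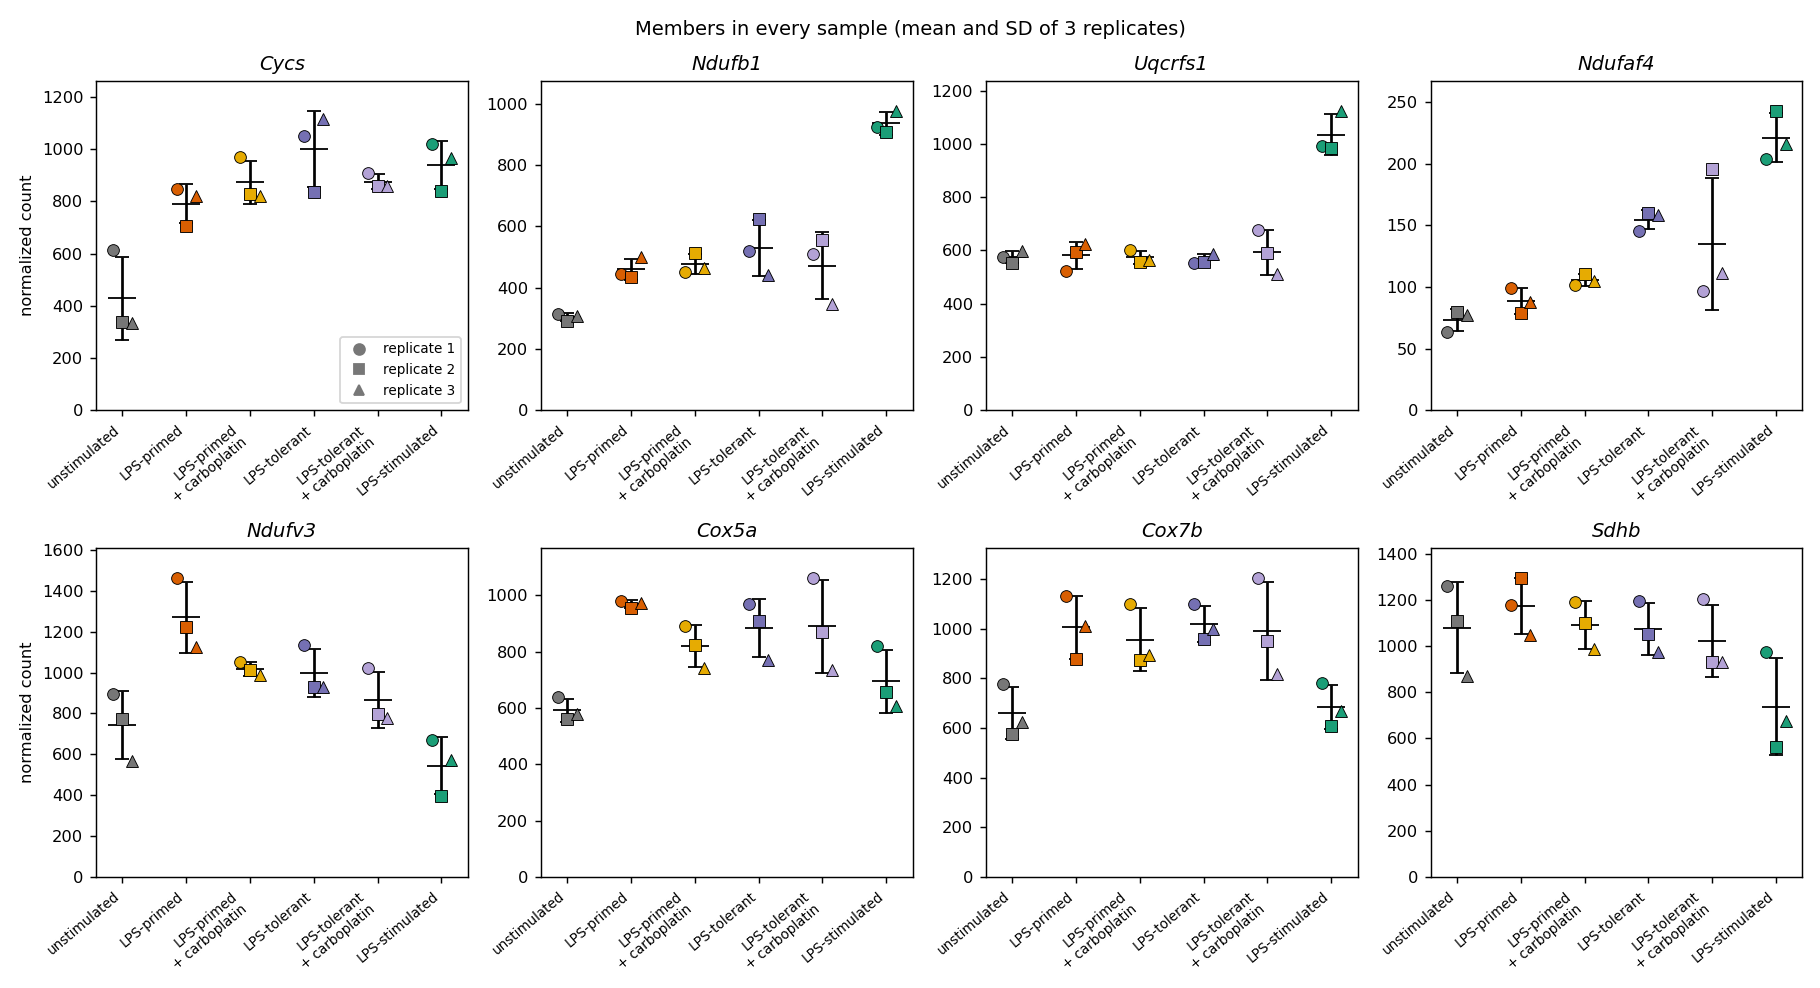
Normalized counts of named OXPHOS genes in every sample. The y axes start at 0, the x axes give the 6 groups and marker shapes the replicates; Ndufb1 and Uqcrfs1 are highest in the 3 LPS-stimulated libraries, and Ndufv3 has its highest mean in LPS-primed and its lowest in LPS-stimulated cells. Bars show the mean and SD of 3 replicates.

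Of the ATP synthase genes, Atp5b was at 8111, 6371 and 7004 in LPS-stimulated cells (log2 fold change 0.54 ± 0.13, adjusted p = 0.00291) and Atp5md at 708, 731 and 587 (0.69 ± 0.18, adjusted p = 0.00365). Both groups lay above the unstimulated libraries. Atp5a1, the alpha subunit, was at 4642, 4213 and 4156 in unstimulated and 5781, 5127 and 5144 in stimulated cells (0.30 ± 0.11, adjusted p = 0.0234), a call that was lost without unstimulated replicate 2 (0.0532) or 3 (0.0566) or LPS-stimulated replicate 1 (0.0774). Cox7a2l, a COX7A family protein of respiratory supercomplexes, was at 1187, 1177 and 1187 in unstimulated and 882, 708 and 789.7 in stimulated cells. The groups did not overlap (-0.58 ± 0.14, adjusted p = 0.00315). Cox7a2l shares 314 exonic bases with the antisense gene Gm66623 and has 2 near-identical copies. Ndufaf7, a methyltransferase that acts in complex I assembly, was at 193, 157 and 197 in unstimulated and 152, 47.0 and 47.3 in stimulated cells. Stimulated replicate 1 lay just below the unstimulated libraries and the other 2 far below them (-1.18 ± 0.34, adjusted p = 0.00909). The adjusted p was 0.0545 without LPS-stimulated replicate 2 and 0.0525 without replicate 3, and 12 other genes hold a stretch nearly identical to a part of its exons.

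Complex II is the smallest of the complexes and also an enzyme of the tricarboxylic acid (TCA) cycle, where it oxidizes succinate. Sdha, the flavoprotein, was at 2014, 1988 and 2242 in unstimulated, 1834, 2064 and 2162 in LPS-primed and 2059, 1839 and 1889 in LPS-stimulated cells, and these ranges overlapped. Sdhb, the iron-sulfur subunit, was at 1262, 1109.7 and 868 in unstimulated and 972, 563 and 677 in stimulated cells. Stimulated replicate 1 lay inside the unstimulated range, and the log2 fold change was -0.55 ± 0.19 (adjusted p = 0.0231). Its levels in primed cells were 1177, 1294 and 1048 and in tolerant cells 1197, 1051 and 973, and each tolerant library lay above its stimulated counterpart of the same number (tolerant against stimulated 0.54 ± 0.19, adjusted p = 0.0356). The call against unstimulated cells was lost without unstimulated replicate 1 (0.118) or 2 (0.0680) and without stimulated replicate 2 (0.122) or 3 (0.0815). The call against tolerant cells was lost without tolerant replicate 1 (0.122) or 2 (0.0631) and without stimulated replicate 2 (0.168) or 3 (0.113). Sdhc, a membrane anchor, was at 805, 661 and 619.9 in unstimulated and 665, 502 and 594 in stimulated cells (-0.25 ± 0.14, adjusted p = 0.155, and 0.0393 with the replicate block). Sdhd, the other anchor, was at 422, 352 and 288 in unstimulated, 510.1, 510.4 and 411 in primed, 459.6, 362 and 379.9 in tolerant and 303, 282 and 259 in stimulated cells. Its stimulated libraries lay below all tolerant libraries (0.51 ± 0.18, adjusted p = 0.0384), and its difference between primed and unstimulated cells was 0.43 ± 0.18 (adjusted p = 0.0920, and 0.0182 with the block). The Sdhd call was lost without tolerant replicate 1 (0.155) or 3 (0.0605) or stimulated replicate 2 (0.0848) or 3 (0.119).

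The study compared LPS-tolerant with LPS-stimulated cells to see how primed cells answer the later dose. Compared to LPS-stimulated cells, LPS-tolerant cells had higher levels of 12 OXPHOS genes and lower levels of 2, that is 13.3% and 2.2% of the 90, whereas 16.2% of tested genes were higher and 18.3% lower. The higher genes were mostly accessory subunits of complex I: Ndufa13, Ndufb3, Ndufb8, Ndufb9, Ndufc1, Ndufc2, Ndufs4 and Ndufv3. They were joined by Sdhb, Sdhd, Cox7b and Atp5o, whereas Ndufb1 and Uqcrfs1 were lower. The median log2 difference was 0.23 over the 90 genes and 0.00 over all tested genes, with 0.26 in complex I, 0.30 in complex II, 0.20 in complex III, 0.19 in complex IV and 0.23 in ATP synthase. The median of the 90 genes was 0.11 without LPS-stimulated replicate 2, 0.12 without LPS-tolerant replicate 1 and 0.33 without LPS-stimulated replicate 1. In all 3 pairs of the same number, 51 genes were higher and 8 lower (56.7% and 8.89%, against 33.1% and 33.9% of tested genes). With the replicate block, 30 genes were higher and 6 lower (22.9% and 24.7% of tested genes). The block added 9 complex I subunits (Ndufa2, Ndufa6, Ndufa8, Ndufa9, Ndufb5, Ndufb6, Ndufs3, Ndufs5 and Ndufv1), Uqcr10, Uqcrq, Cox5a, Cox5b, Cox7a2, Cox8a, Atp5g3, Atp5h and Atp5j2 to the higher genes, and Ndufa4, Ndufaf4, Uqcrc2 and Atp5a1 to the lower ones. The 12 higher calls became 25 without LPS-stimulated replicate 1, 2 without LPS-stimulated replicate 2, 4 without LPS-stimulated replicate 3, 3 without LPS-tolerant replicate 1 and 3 when only the samples compared entered the fit. Only Ndufb9 and Ndufv3 of the 12 passed in every alternative. The other 10 were all lost without LPS-stimulated replicate 2 (adjusted p = 0.0621 to 0.182), and all of these but Ndufs4 without LPS-tolerant replicate 1 (0.0545 to 0.179). The stimulated libraries are also part of the comparison with unstimulated cells above.

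Ndufv3 was at 1133, 932 and 931 in LPS-tolerant and 668, 395 and 572 in LPS-stimulated cells. The groups did not overlap (0.88 ± 0.20, adjusted p = 0.00224), and against unstimulated cells the stimulated level differed by -0.45 ± 0.20 (adjusted p = 0.0634, and 0.00836 with the replicate block). Ndufb9, an accessory subunit of the membrane arm, was at 1034, 1027 and 999.6 in tolerant and 765, 623 and 707 in stimulated cells, also without overlap (0.55 ± 0.13, adjusted p = 0.00376). Its exons share 1737 bases with Mtss1 on the opposite strand and 201 bases with Gm49356 on its own strand. Cox7b, a small subunit of complex IV, was at 1098, 956 and 998 in tolerant and 779, 606 and 666 in stimulated cells (0.57 ± 0.17, adjusted p = 0.0136), and it has 3 near-identical copies. The Cox7b call was lost without tolerant replicate 1 (0.0545) or stimulated replicate 2 (0.0624). In the other direction, Ndufb1 differed by -0.82 ± 0.16 (adjusted p = 0.000864) and Uqcrfs1, at 552, 557 and 588 in tolerant cells, by -0.87 ± 0.13 (adjusted p = 4.70e-05). For both genes the 3 tolerant libraries lay below the 3 stimulated libraries.

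When the later dose was measured against the primed state, 1 OXPHOS gene rose and 0 fell, whereas 3.60% of tested genes rose and 2.71% fell. The median log2 fold change was 0.04 over the 90 genes and -0.01 over all tested genes. The gene that rose was Ndufaf4 (log2 fold change 0.80 ± 0.22, adjusted p = 0.0420), with all 3 LPS-tolerant libraries above the 3 LPS-primed libraries. The call rested on every library: its adjusted p was 0.0617, 0.141 and 0.124 without LPS-primed replicate 1, 2 and 3, and 0.0719, 0.110 and 0.114 without LPS-tolerant replicate 1, 2 and 3. Cycs was at 846, 705 and 821 in primed and 1051, 835 and 1114 in tolerant cells, and Uqcrfs1 at 524, 595 and 625 in primed and 552, 557 and 588 in tolerant cells. Both pairs of ranges overlapped.

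The response to the later dose was then set against the response to the same dose in cells without priming, as the difference of the differences (tolerant minus primed) minus (stimulated minus unstimulated). The difference of tolerant minus primed also holds the change of medium and the added time, which cannot be told apart from the dose. This contrast was chosen after the other comparisons had been seen. The value was below 0 in 3 called OXPHOS genes and above 0 in none, whereas 13.3% of tested genes were called below and 10.5% above 0. The 3 genes were Ndufb1 (-1.42 ± 0.23, adjusted p = 0.000244), Uqcrfs1 (-0.89 ± 0.18, adjusted p = 0.00142) and Cycs (-0.80 ± 0.27, adjusted p = 0.0444). The call of Cycs was lost in 12 of 20 alternatives, with a highest adjusted p of 0.129. Among the fits without 1 library it was lost without unstimulated replicate 2 (0.113) or 3 (0.107), primed replicate 1 (0.0887) or 3 (0.0839), tolerant replicate 1 (0.0623) or 2 (0.108) and stimulated replicate 1 (0.0753) or 3 (0.0839). With the replicate block, 8 genes were lower and 1 higher (19.0% and 17.2% of tested genes), with Atp5a1, Atp5b, Ndufaf3, Ndufaf4 and Uqcrc2 added to the lower genes and Ndufs8 as the higher gene. For Ndufaf4 the value was -0.79 ± 0.31 (adjusted p = 0.0814, and 0.0336 with the block). With library size alone, which moved the median of all genes to 0.30, 3 genes were higher and 2 lower.

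Several subunits of complex IV and ATP synthase come as paralogs, some of them known as muscle or tissue forms. In these cells the ubiquitous forms carried nearly all read pairs: Cox4i1 was at 3368 ± 75.8 normalized counts in unstimulated cells (SD, n = 3), Cox6a1 at 1364 ± 391, Cox6b1 at 1601 ± 91.7, Cox7a2 at 532 ± 46.1 and Cox8a at 593 ± 168. The muscle form Cox7a1 was at 29.7 ± 11.3, and the 5 muscle markers summed to at most 1.06 CPM. None of these 6 genes passed the test in any comparison without the block. With the block, Cox6b1, Cox7a2 and Cox8a rose in primed cells (adjusted p = 0.0236, 0.0163 and 0.0387). With the block, Cox6b1 also rose in stimulated cells (0.0155), and Cox7a2 and Cox8a were higher in tolerant than in stimulated cells (0.0120 and 0.0243). Ndufa4 was at 597, 656 and 514 in unstimulated and 493, 449 and 434 in primed cells. The groups did not overlap, and the log2 fold change was -0.36 ± 0.15 (adjusted p = 0.0927, and 0.0377 with the block). Its paralog AA467197, which is not in the set of 90, was at 121, 37.7 and 49.1 in unstimulated and 1413, 486 and 907 in LPS-stimulated cells. Every stimulated library lay above every unstimulated library, by 3.76 ± 0.81 on the log2 scale (adjusted p = 0.00102). AA467197 was at 371, 55.8 and 130.3 in primed and 449.5, 74.3 and 212 in tolerant cells, with replicate 1 highest and replicate 2 lowest in each of the 6 groups. With the replicate block, its changes of 1.43 in primed cells (adjusted p = 0.201) and -1.94 in tolerant against stimulated cells (0.0524) passed at adjusted p = 0.000145 and 7.46e-08.

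The 3 genes of the c subunit, which encode the same mature protein with different targeting peptides, did not move together. Atp5g2 was at 986, 927 and 864 in unstimulated and 684, 733 and 685 in LPS-primed cells. The groups did not overlap, and the log2 fold change was -0.40 ± 0.14 (adjusted p = 0.0432). Without unstimulated replicate 1, 2 and 3 the adjusted p was 0.137, 0.111 and 0.0625, and without LPS-primed replicate 1, 2 and 3 it was 0.114, 0.0692 and 0.115. Atp5g3 rose, as given above, and Atp5g1 was at 415, 392 and 253 in unstimulated and 652, 521 and 368 in primed cells (0.54 ± 0.27, adjusted p = 0.170, and 0.0145 with the block). Each primed library of Atp5g1 lay above the unstimulated library of the same number, although the groups overlapped. Atp5g1 has 1 and Atp5g2 has 3 near-identical copies in the genome, and Atp5g3 has 0. The difference between the 3 genes was not tested.

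**Figure D4:**
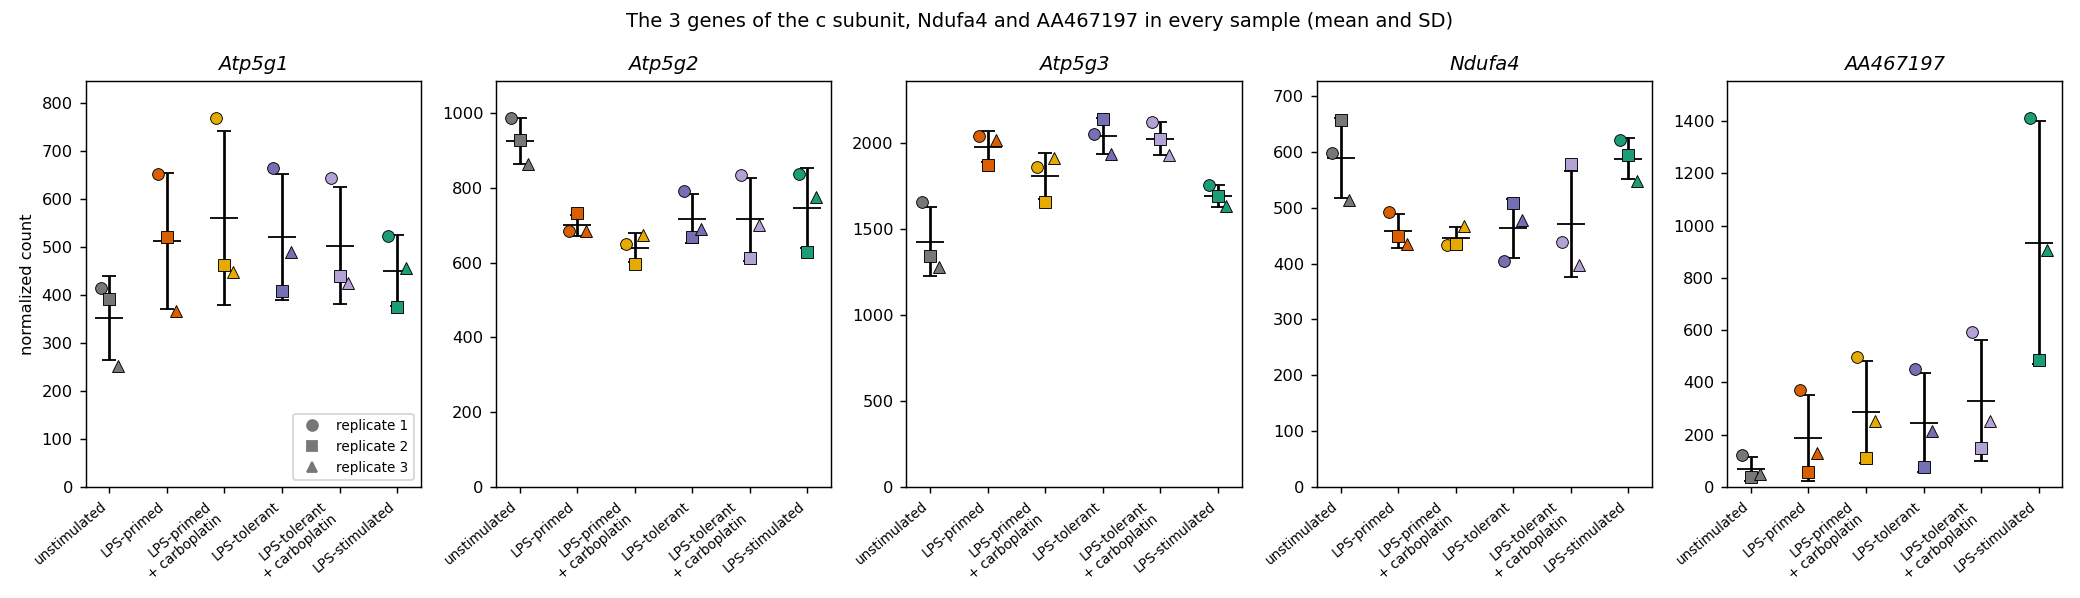
Normalized counts of paralogs in every sample. The y axes start at 0, the x axes give the 6 groups and marker shapes the replicates, with bars for the mean and SD; Atp5g2 is highest in unstimulated cells and Atp5g3 is lower there than in LPS-primed cells, and AA467197 is highest in LPS-stimulated cells with replicate 1 on top.

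Carboplatin, which the study added to ask how the drug alters the primed and the tolerant state, changed 0 of the 90 OXPHOS genes in LPS-primed and 0 in LPS-tolerant cells in edgeR's test, whereas 0.372% and 0.425% of tested genes were called. At an unadjusted p under 0.05 there were 2 and 3 OXPHOS genes. DESeq2 and limma-voom also called 0, with 2 and 5 genes at an unadjusted p under 0.05 in the former and 2 and 4 in the latter. With the replicate block the counts were 0 and 0 (1.77% and 1.77% of tested genes), with 4 and 9 genes at an unadjusted p under 0.05. In the test of whether the carboplatin effect differed between the tolerant and the primed state, 0 of the 90 and 0 of all tested genes were called. At an unadjusted p under 0.05 there were 1 of the 90 in edgeR, 3 in DESeq2, 2 in limma-voom and 5 with the replicate block. A test that called no gene at all cannot show that the effects were alike in the 2 states. The median log2 fold change of the 90 genes was -0.03 in primed and -0.06 in tolerant cells, against 0.01 and 0.01 over all tested genes. In tolerant cells, 27 genes were lower with carboplatin in all 3 pairs of the same number and 7 were higher in all 3, that is 30.0% and 7.78% of the 90, against 22.0% and 21.9% of tested genes. In primed cells these counts were 17 and 12 (18.9% and 13.3%, against 20.7% and 21.2%). The summed level was 8281 ± 467 CPM in LPS-primed + carboplatin against 8369 ± 577 in LPS-primed cells, and 8210.1 ± 778 in LPS-tolerant + carboplatin against 8634 ± 591 in LPS-tolerant cells. The sum with carboplatin differed from that of the same replicate number by -254, -169 and 161 CPM in primed cells. In tolerant cells it was lower in all 3 pairs, with differences of -218, -360.0 and -695 CPM. These sums carry no test.

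The largest carboplatin change of any OXPHOS gene was that of Ndufaf2, an assembly factor of complex I, at 82.6, 58.1 and 61.9 in LPS-primed and 41.9, 35.7 and 43.3 in LPS-primed + carboplatin cells. The groups did not overlap, but the change of -0.75 ± 0.27 did not pass (adjusted p = 0.453). In tolerant cells Ndufaf2 was at 58.2, 57.0 and 59.7 without and 32.8, 55.8 and 39.5 with carboplatin (-0.45 ± 0.27, adjusted p = 0.896). Ndufs4, an accessory subunit next to the NADH-binding module, was at 420.4, 586 and 458 in LPS-tolerant and 366, 331 and 293 in LPS-tolerant + carboplatin cells. Here too the groups did not overlap (-0.57 ± 0.16, adjusted p = 0.205, and 0.0539 with the block), and in primed cells the change was -0.17 ± 0.16. Ndufaf2 and Ndufs4 span 155.9 and 102.8 kb and are the only 2 of 87 positioned OXPHOS genes over 100 kb, whereas the median span is 9.06 kb. Both were named after their values were seen. Across the 87 genes, span and carboplatin change had a Pearson correlation of -0.15 in primed and -0.29 in tolerant cells and a Spearman correlation of 0.02 and -0.03, a description over genes of the same libraries. Across the 90 genes, the carboplatin changes of the 2 states, which share no library, had a Pearson correlation of 0.21 and a Spearman correlation of -0.03, and 37 genes were lower and 10 higher in both (41.1% and 11.1%, against 31.4% and 34.4% of tested genes).

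**Figure D5:**
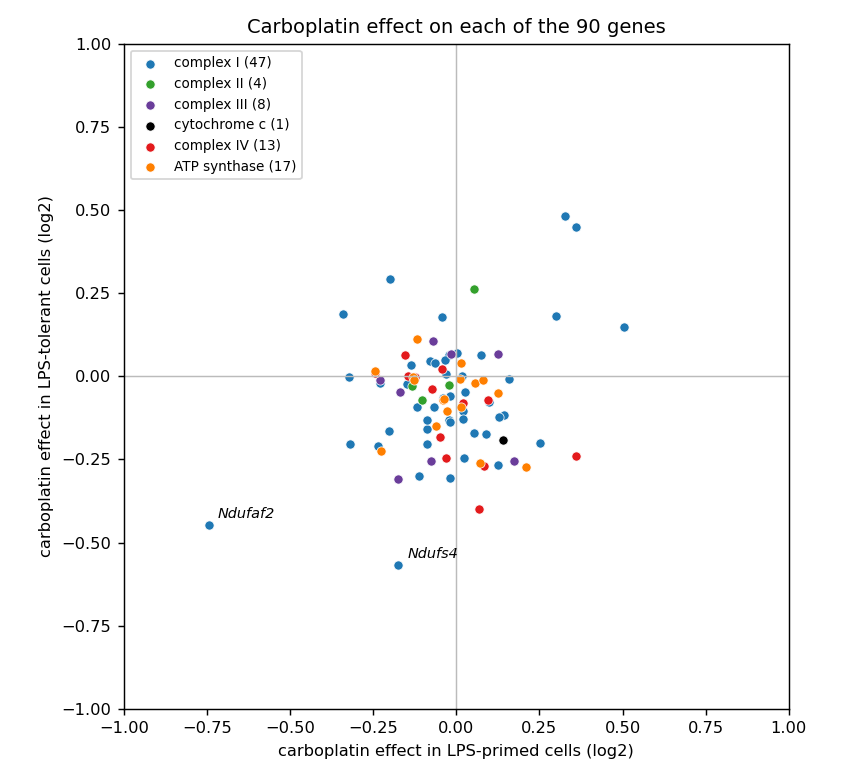
Carboplatin effect on each of the 90 OXPHOS genes. The x axis gives the log2 fold change in LPS-primed and the y axis that in LPS-tolerant cells, and each point is a gene, coloured by complex; the points gather around 0 with a Pearson correlation of 0.21, and Ndufaf2 lies farthest to the left at -0.75.

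With the limits used by the study (a log2 fold change over 2 in size, with an adjusted p under 0.05 for LPS and under 0.25 for carboplatin), 0 of the 90 genes passed in any of the 6 comparisons, whereas 7.47% of tested genes passed in LPS-primed against unstimulated, 12.0% in LPS-stimulated against unstimulated, 8.04% in LPS-tolerant against LPS-stimulated, 0.681% in LPS-tolerant against LPS-primed, and 0.265% and 0.389% with carboplatin in primed and tolerant cells. At these limits the study itself lists the complex IV gene Cox6a2 as lowered by carboplatin in primed cells. Cox6a2 is not among the 90 genes, because its mean of 5.06 read pairs (0 to 11 per library) lay below the count limit. Across the 4 comparisons of LPS states, 25 of the 90 genes passed the test without a limit on the fold change in at least 1 (27.8%, against 65.0% of tested genes), and 65 in none.

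Other genes that encode, assemble, feed or regulate the chain were counted list by list, to be read against the shares of all tested genes that rose and fell: 12.1% and 13.1% in primed cells, 24.3% and 26.9% in stimulated cells, and 16.2% higher and 18.3% lower in tolerant against stimulated cells. Under the replicate block these shares were 18.9% and 19.8% in primed and 29.5% and 33.8% in stimulated cells. In tolerant against stimulated cells they were 22.9% and 24.7%. All 13 mtDNA-encoded subunits were tested, 0 changed in primed or stimulated cells, and 1, mt-Nd6, was higher in tolerant than in stimulated cells (0.73 ± 0.26, adjusted p = 0.0380) and than in primed cells (1.09 ± 0.26, adjusted p = 0.0201). mt-Nd6 lies on the opposite mtDNA strand to the other subunits, so its counts depend on the strand option. Of the complex III subunit Cyc1, which the rule does not take in, the log2 fold change was 0.34 in primed (adjusted p = 0.368) and 0.27 in stimulated cells (0.399). Of 42 tested assembly factors outside the set, 3 rose and 0 fell in primed cells, 6 rose and 11 fell in stimulated cells, and 10 were higher and 3 lower in tolerant against stimulated cells. With the replicate block, 6 rose in primed cells, 8 rose and 12 fell in stimulated cells, and 15 were higher and 3 lower in tolerant against stimulated cells. Tmem126b, which acts in the assembly of the complex I membrane arm, fell by 1.75 on the log2 scale in stimulated cells (adjusted p = 1.12e-05) and was 1.61 higher in tolerant cells (5.10e-05). Ttc19, a complex III factor, rose by 3.15 in stimulated cells (3.34e-08).

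Among 18 TCA cycle enzymes, 5 rose and 3 fell in primed cells and 4 rose and 2 fell in stimulated cells (7 and 3, and 6 and 3, with the block). Idh3a, a catalytic subunit of the NAD-dependent isocitrate dehydrogenase, rose by 0.51 (adjusted p = 0.0454) and 1.15 (5.00e-05) on the log2 scale. Other subunits of this enzyme did not follow it in primed cells, where Idh3g fell (-0.60, edgeR adjusted p = 0.00661) and Idh3b was at 0.01 (0.985). Of 20 genes of ubiquinone-linked dehydrogenases and ubiquinone synthesis, 3 rose and 0 fell in primed cells (4 and 2 with the block) and 3 rose and 6 fell in stimulated cells (4 and 7 with the block). Gpd2, the mitochondrial glycerol 3-phosphate dehydrogenase, rose by 2.53 in primed (1.18e-05) and 3.0 in stimulated cells (7.94e-07). Of 18 tested factors of mitochondrial biogenesis, 1 rose and 1 fell in primed cells and 7 rose and 1 fell in stimulated cells (7 and 3 with the block). Those that rose included the coactivator gene Pprc1, up by 2.14 (9.64e-07), and Gabpb1, a subunit of GABP, up by 1.69 (3.44e-06). Of 14 carriers, 4 rose and 2 fell in primed and 2 rose and 3 fell in stimulated cells, and of 78 mitochondrial ribosomal proteins 4 rose and 1 fell in primed and 16 rose and 7 fell in stimulated cells (7 and 3, and 18 and 16, with the block). Of 12 tested regulators of respiration linked to LPS, 9 rose and 1 fell in primed and 7 rose and 2 fell in stimulated cells. These were listed for that link, so the values of all tested genes are no yardstick for them. Higd1a is counted both here and among the assembly factors. Hif1a, the hypoxia-inducible factor, rose by 3.60 (3.56e-08) and 3.54 (1.68e-08). Median log2 fold changes in primed cells were 0.08 for the mtDNA-encoded subunits, 0.07 for the assembly factors, 0.20 for the TCA cycle, 0.17 for the ubiquinone-linked genes, -0.07 for the biogenesis factors, 0.13 for the carriers, 0.11 for the ribosomal proteins and 1.92 for the 12 regulators, against -0.02 over all tested genes. Carboplatin changed 0 genes in each of these lists in both states without the block. With it, 1 gene fell in primed cells, where 1.77% of all tested genes were called in either direction. The gene was Nubpl, an assembly factor of complex I (-1.76 ± 0.39, edgeR adjusted p = 0.0689 without and 0.0189 with the block).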

How the data were processed

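RNA-Seq was performed on 18 BMDM samples in 6 groups of 3 replicates. Per the paper and the labels, the libraries were stranded and poly(A)-selected, and the authors used HISAT2 (genome build GRCm39) for alignment and HTSeq-count for read pairs per gene. The deposited files hold these raw counts. Which versions, annotation and strand setting they used is not given in the sources used here. Rows that name no gene (41.52% to 46.89% of read pairs) were left out.

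Counts were fitted for all 18 samples in a single model with a mean per group by edgeR 4.0.16 (R 4.3.3): TMM scaling, filterByExpr (minimum count 10, minimum total 15), quasi-likelihood test, and Benjamini-Hochberg adjustment over the 11305 tested genes, with genes called at an adjusted p under 0.05. The SE is the size of the log2 fold change divided by the square root of the F statistic, and normalized counts are scaled to the mean effective library size of 9307681. The scripts were tested on simulated data. The OXPHOS genes, lists, tests and named genes were chosen with earlier results of these data known. Named genes were the 3 with the smallest adjusted p in each direction of each comparison, those past the limits of the study, complex II and Cycs, paralogs of complex IV subunits, called genes that went against the median of their complex, and those with the widest and narrowest range. Other genes were named after their values were seen.

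Samples with the same replicate number deviated together from their group means: the correlation over genes was 0.183 to 0.574 in the pairs of groups that were compared. Over all 15 pairs of groups, 1 of 45 pairs of samples was under 0.1 (0.063, LPS-primed with LPS-stimulated replicate 3, which were not compared directly). The numbers were taken to pair the samples, and values with the number as a block are given where they change the call of an OXPHOS gene or move a count of calls by over 1.5 times. The pairing comes from the numbers in the labels and this check. The samples are called biological replicates, but whether they came from separate mice is not stated, so p-values measure the spread between these samples. Replicates of a group differed by more than the sampling noise.

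Positions and overlaps came from GENCODE vM39 (GRCm39), where 74 of the genes matched by symbol and 13 by a synonym. In it 30 of the 90 genes have a near-identical copy elsewhere (at least 95% over 150 bases) and 40 share exonic bases with a gene on the opposite strand. Another 3 overlaps, of Ndufb2, Ndufb8 and Ndufb9, are with a gene on the same strand. Ndufb8 shares 468 of its 682 exonic bases with Gm20538. The counting may have split such reads or left them out, and the effect of the opposite strand depends on the strand option. Alternatives were DESeq2 1.42.0, limma-voom (limma 3.58.1), scaling by DESeq2 size factors or by library size only, other filters on low counts, a fit of only the groups compared, the replicate block, and leaving out each library.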

Additional observations from a re-analysis of the deposited data

Results flagged for a closer look

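A test of the difference between the responses to LPS at 10 ng/ml with and without priming, chosen after the data had been seen, picked out 3 OXPHOS genes, for which the response after priming was smaller (edgeR, log2 scale). The difference was -1.42 for Ndufb1 (adjusted p = 0.000244), where tolerant cells stood at 529 ± 90.7 and stimulated cells at 936 ± 36.3 normalized counts (SD, n = 3). It was -0.89 for Uqcrfs1 (adjusted p = 0.00142), at 566 ± 19.4 in tolerant and 1035 ± 77.3 in stimulated cells. It was -0.80 for Cycs (adjusted p = 0.0444), which was already at 791 ± 75.1 in primed cells with 1051, 835 and 1114 in tolerant and 940.5 ± 92.1 in stimulated cells. The call of Cycs was lost in 12 of 20 alternatives (highest adjusted p = 0.129), whereas those of Ndufb1 and Uqcrfs1 passed in all 20. Groups of 3 samples are too small for a check of single outlying samples.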

How the results depend on the processing

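Of the OXPHOS genes called, Cox5a, Cycs, Ndufc1 and Ndufv3 in primed, Ndufb1, Ndufaf4, Cycs, Uqcrfs1 and Cox7a2l in stimulated, and Ndufb1, Uqcrfs1, Ndufb9 and Ndufv3 in tolerant against stimulated cells passed in all 14 alternatives of their comparison. With the replicate number as a block, 24 genes rose and 3 fell in primed cells, 11 fell in stimulated cells, 30 were higher and 6 lower in tolerant against stimulated cells, and in the second-dose contrast (the difference of the 2 responses to 10 ng/ml) 1 value was higher and 8 lower. Beside the calls that the report gives with it, this pairing changed no other call of an OXPHOS gene. With library size alone, 4 rose and 6 fell in primed, 4 rose and 32 fell in stimulated, 0 rose in tolerant against primed cells and 3 values of the second-dose contrast were higher, and in stimulated cells Atp5a1 (-0.033), Atp5g3 (-0.088) and Cox6b1 (-0.022) turned sign. In primed cells 0 fell with DESeq2 size factors. With no filter 0 fell in primed cells and 0 rose in tolerant against primed cells. With at least 10 counts in every sample, 6 fell in stimulated cells. With only the samples compared, 0 fell in primed, 1 fell in stimulated, 3 were higher in tolerant against stimulated and 0 rose in tolerant against primed cells. Leaving out each library in turn gave 8 to 14 genes that rose and 0 to 0 that fell in primed cells, 6 to 8 and 1 to 8 in stimulated cells, 2 to 25 and 2 to 2 in tolerant against stimulated cells, and 0 to 0 that rose in tolerant against primed cells. In the second-dose contrast it gave 0 to 1 higher and 2 to 4 lower values, the 1 without stimulated replicate 1. Over the alternatives, the median log2 fold change of the 90 genes ranged from -0.05 to 0.28 in primed, -0.30 to 0.12 in stimulated, 0.11 to 0.33 in tolerant against stimulated and -0.06 to 0.11 in tolerant against primed cells, and from -0.07 to 0.03 and -0.19 to 0.01 with carboplatin in primed and tolerant cells. All counts for carboplatin were 0 in every alternative. The causes were not tested. Fits of fewer samples have less information on the spread, and the part of this in the changed counts was not tested either. Depth limits the genes of low counts, such as Ndufb4b with a mean of 24.2 read pairs.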
